A study of Mus musculus with 4 samples.

Results

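Messenger RNA is destroyed from its 5′ end by a small set of enzymes and activators, after its poly(A) tail is shortened at the 3′ end. From these steps 10 genes were examined in mouse testis: Dcp1a, Dcp1b, Dcp2, Edc3, Edc4, Xrn1, Ddx6, Patl1, Lsm1 and Pan2. Pan2 belongs to the shortening of the tail. They were taken by gene symbol from the deposited table, which holds 25265 genes, and each of the 10 had exactly 1 row. The samples are whole testes from C57BL/6 mice aged 56 days after birth, profiled by sequencing of ribosomal RNA-depleted total RNA, with 2 control libraries and 2 that carry the label Ythdf2-vKO, a mutation of the m6A reader gene Ythdf2 that the series title calls germ cell-specific. How the mutation was driven, the deleted segment, the control genotype beyond its name and the animals behind each library are not given in the sources used here, so p-values measure only the spread between these libraries, which may be technical.

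Decay of most mRNAs begins with shortening of the poly(A) tail, carried out by the PAN2-PAN3 and CCR4-NOT deadenylases. The LSM ring with PATL1 then binds the shortened 3′ end, the helicase DDX6 and the EDC proteins assemble with DCP1 and DCP2, DCP2 removes the cap, and the exonuclease XRN1 digests the body of the RNA from its 5′ end. Many of these proteins gather in cytoplasmic processing bodies, and in male germ cells several are also known from germ granules. YTHDF2 is known to bind RNA carrying N6-methyladenosine (m6A) and to recruit CCR4-NOT, after which decapping and digestion from the 5′ end can follow.

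DCP1A and DCP1B are paralogous cofactors of the decapping enzyme, and their coding sequences are shown because the results below compare their levels, which requires that reads can be told apart. In the GENCODE M21 transcripts the coding sequence is 1806 nt in Dcp1a and 1734 nt in Dcp1b, and over 1657 aligned nt they were 60.6% identical. The most similar gap-free stretch of 150 nt held 108 identical bases. It runs from nt 115 to 264 of the Dcp1a coding sequence and from nt 70 to 219 of that of Dcp1b, counted from the A of the start codon, and bases that differ are in capitals.
Dcp1a: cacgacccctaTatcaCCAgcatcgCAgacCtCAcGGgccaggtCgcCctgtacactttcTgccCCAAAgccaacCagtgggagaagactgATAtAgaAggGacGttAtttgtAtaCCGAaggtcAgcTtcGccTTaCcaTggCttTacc
Dcp1b: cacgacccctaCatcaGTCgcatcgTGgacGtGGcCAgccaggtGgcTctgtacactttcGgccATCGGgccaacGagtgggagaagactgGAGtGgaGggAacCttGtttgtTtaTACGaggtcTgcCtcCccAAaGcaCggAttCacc
The longest run shared exactly by the 2 coding sequences was 15 nt. Differences are spread along the whole stretch, so a coding read longer than that cannot match both genes exactly. Merged exons come to 8230 nt in Dcp1a and 6339 nt in Dcp1b, so most of their length lies outside this alignment. A BLAST search with the longest transcripts gave no match between the paralogs of at least 200 nt at 85% identity.

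The starts of the same 2 genes are shown because the paralogs differ in level. RefSeq promoter windows (build GRCm38.p6, 250 bases before to 50 after a start) were matched for 7 of the 10 genes; Dcp2, Ddx6 and Lsm1 had no entry. The letters below lie before the earliest annotated start, on the plus strand, at chr14:30479315-30479485 for Dcp1a and chr6:119175003-119175252 for Dcp1b, with matches to CCGGAAG, the core recognised by ETS family factors, in capitals on either strand.
Dcp1a: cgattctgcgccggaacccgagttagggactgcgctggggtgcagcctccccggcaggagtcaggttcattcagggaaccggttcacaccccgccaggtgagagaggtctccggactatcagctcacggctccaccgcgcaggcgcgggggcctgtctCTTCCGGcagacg
Dcp1b: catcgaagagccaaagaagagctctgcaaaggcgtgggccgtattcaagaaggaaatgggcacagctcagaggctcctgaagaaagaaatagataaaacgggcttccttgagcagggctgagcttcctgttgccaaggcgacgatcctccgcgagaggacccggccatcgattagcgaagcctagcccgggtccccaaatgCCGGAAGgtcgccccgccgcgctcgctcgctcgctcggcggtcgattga
CCGGAAG on either strand was present in the windows of Dcp1a, Dcp1b and Edc4, 3 of 7, and in 8.86% of all 32851 windows. TATAAA was in 0 of 7 and in 13.6% of all windows. GGGCGG was in 3 of 7 and in 35.7% of all, and CCAAT in 3 of 7 and in 37.4% of all. TGACGTCA, the cAMP response element, was in 0 of 7 and in 1.79% of all. The CG dinucleotide occurred 25 times in each Dcp1 window against a median of 7 over all windows, and 81.6% of all windows had fewer than 25. It occurred 36 times in the window of Patl1, 20 in that of Xrn1, 15 in that of Pan2, 13 in that of Edc3 and 8 in that of Edc4. All windows means the whole promoter set, which was not limited to the genes tested here. These are matches of letters only.

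Total gene counts ran from 24862518 to 29561182 per library. Read counts on Ythdf2 came to 1193 and 1604 for control, while the vKO-labelled libraries held 1774 and 1807. Scaled to a common library size (CPM), these were 51.0 and 53.5 against 66.3 and 67.0, groups that did not overlap. The log2 fold change by edgeR was 0.35 (SE 0.13, unadjusted p 0.016, adjusted p 0.238), so the difference did not pass. Its estimate was positive under every alternative, from 0.31 to 0.41. The point estimate for the targeted transcript was thus positive rather than negative under the vKO label, for a cause that was not tested. The alternatives reuse the same libraries and are not separate evidence. Counts per gene in whole testis cannot show the loss of a gene segment in germ cells. The genotype is given below as the label has it. Control replicate 2 stood apart in base composition: how far a library's log2 CPM lay from the 4-library mean correlated with transcript GC content, over 17830 genes, at a Spearman rho of -0.399 in it, 0.0238 in control replicate 1, and 0.254 and 0.189 in the vKO-labelled libraries. The log2 fold change between the groups also followed GC content over these genes, with a rho of 0.293. With a GC offset in the fit the rho was -0.0198. These correlations are across genes, which are not independent replicates. The testis label was checked on short lists of cell type markers. All 47 germ cell, Sertoli, Leydig, myoid, macrophage, endothelial and erythrocyte markers looked for were in the table. Summed epididymis markers, in counts scaled to a common library size, lay at 0.257 and 0.801 CPM in the control libraries. In the vKO-labelled libraries they lay at 1.49 and 1.33 CPM. Summed levels of 6 Sertoli markers were 782 and 845 CPM in the control libraries and 1130 and 985 CPM in the vKO-labelled libraries, all 6 with a positive log2 fold change. For 5 elongating spermatid markers the sums were 6280 and 5210 CPM against 4740 and 4850 CPM, with 0 of 5 above 0. By edgeR the unadjusted p was under 0.05 for 6 of 6 Sertoli and 3 of 5 elongating spermatid markers, against 14.1% of all genes. It was so for 3 of 5 Leydig, 3 of 4 erythrocyte, 1 of 5 spermatogonial and 1 of 4 endothelial markers, and for the 1 epididymis marker tested. For spermatocyte, round spermatid, myoid and macrophage markers the count was 0. Log2 fold changes were above 0 for 5 of 5 Leydig, 4 of 4 erythrocyte, 5 of 5 spermatogonial and 3 of 4 endothelial markers. They were above 0 for 1 of 5 spermatocyte, 3 of 5 round spermatid, 1 of 4 myoid and 3 of 4 macrophage markers. Of all these 1 Sertoli marker was called, against 0.393% of all genes. In whole testis, fewer cells of a type and less RNA per cell cannot be told apart, and the part of cell composition in the values below was not tested.

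None of the 10 genes passed the test between genotypes. In the quasi-likelihood test of edgeR, adjusted by Benjamini-Hochberg, 0 of 10 were called at an adjusted p under 0.05, against 0.393% of the 21132 genes tested, and 0 of 10 had an unadjusted p under 0.05, against 14.1%. A DESeq2 Wald test also called 0 of 10 (1.32% of its genes with an adjusted p), with 0 of 10 at an unadjusted p under 0.05 (8.76% of all). The authors' deposited values come from DESeq2 on the same counts and match this rerun, so they are not separate evidence. In them the adjusted p of the 10 genes ran from 0.731 for Dcp1b to 0.954 for Edc3. Log2 fold changes, as libraries labelled vKO over control, ran from -0.19 for Xrn1 to 0.20 for Dcp1b, and 4 of the 10 were above 0, against 50.3% of all genes tested. Their median was -0.064 against 0.003 for all genes, and their median absolute value was 0.11 against 0.207. All genes tested include genes with far fewer reads, and no comparison at like counts was made. The smaller absolute value is thus not read as particular to the 10 genes.

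The precision of these estimates limits how large a difference could have been missed. The 95% interval of the log2 fold change lay within 1.5-fold in either direction for 10 of 10 genes, which was so for 40.0% of all genes tested. The widest reach was a fold of 0.697 for Xrn1 downward and of 1.42 for Dcp1b upward. All members were well counted, with 258 to 3325 reads per library. The intervals depended on the libraries used: without replicate 1 of the vKO-labelled libraries only 2 of 10 (Edc3 and Pan2) stayed within 1.5-fold, and without control replicate 1, without control replicate 2 and without replicate 2 of the vKO-labelled libraries there were 8, 9 and 8. With all 4 libraries but scaling by library totals alone there were 9, and the interval of Dcp2 reached a fold of 1.51. The share over all genes was not taken for these alternatives, so their counts are not read as particular to the 10 genes. The count of 10 of 10 is not so read either, since all genes tested were not matched to the members in read counts. Among the 25 partners 76.0% lay within 1.5-fold in that fit.

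**Figure D1:**
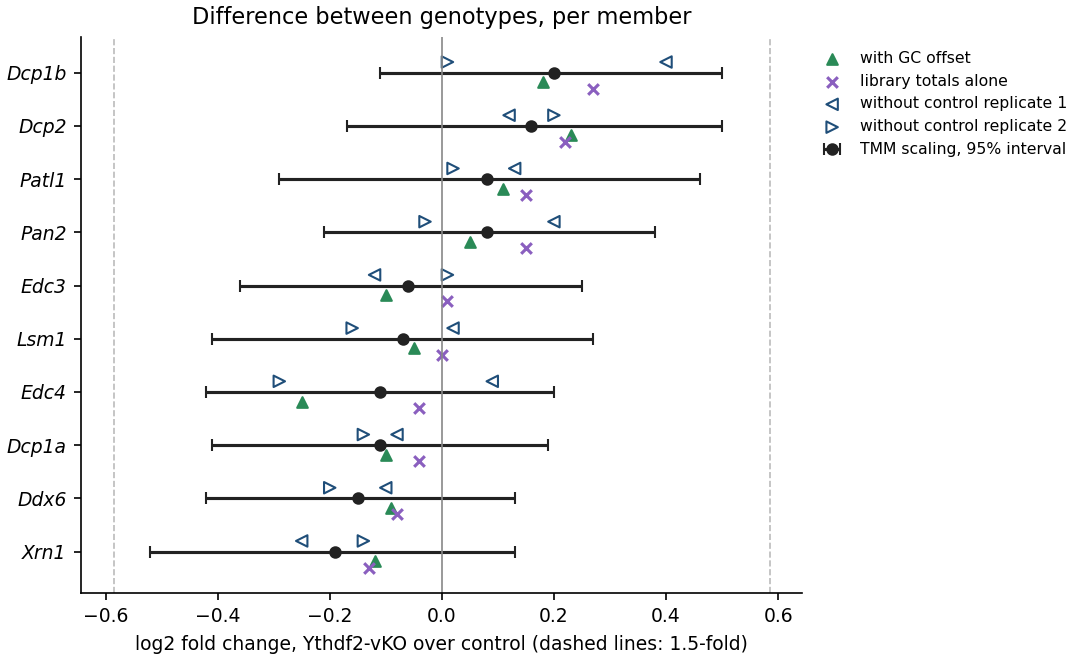
Log2 fold change of each of the 10 genes (x axis, libraries labelled Ythdf2-vKO over control) with its 95% interval from edgeR (black), and the point estimates with a GC offset, with scaling by library totals, and without either control library. All black intervals cross 0 and end inside the dashed lines at 1.5-fold, and the estimates without control replicate 1 and without control replicate 2 lie farthest apart for Dcp1b (0.40 and 0.01) and Edc4 (0.09 and -0.29).

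The decapping enzyme itself, Dcp2, is on the plus strand of chromosome 18 (44380502 to 44424969 in GRCm38). It stood at 14.6 and 15.4 CPM in the control libraries and 16.9 and 16.7 CPM in the vKO-labelled libraries. Both of the latter were above both controls, by a margin that the test did not separate from the spread between libraries (log2 fold change 0.16, SE 0.16, adjusted p 0.707). The GC content of its longest transcript is 42.7%, and with an offset for GC the log2 fold change was 0.23, with an adjusted p of 0.547.

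Its cofactor genes Dcp1a (plus strand of chromosome 14, 30479535 to 30527063) and Dcp1b (plus strand of chromosome 6, 119175253 to 119221616) had estimates of opposite sign. Dcp1a stood at 32.6 and 31.1 CPM in the control libraries and 30.7 and 28.2 CPM in the vKO-labelled libraries. The groups did not overlap, but control replicate 2 and replicate 1 of the vKO-labelled libraries were nearly level (log2 fold change -0.11, SE 0.14, adjusted p 0.785). Dcp1b stood at 121 and 92.2 CPM in the control libraries and 124 and 120 CPM in the vKO-labelled libraries. The other 3 values were close together while control replicate 2 was low, and the groups overlapped (log2 fold change 0.20, SE 0.14, adjusted p 0.585). The estimate for Dcp1b rested on that library. Without control replicate 1, and so against control replicate 2 alone, it was 0.40 with an adjusted p of 0.0389, a fit that called 6.82% of its genes and 1 of the 10 members; without control replicate 2 it was 0.01 with an adjusted p of 0.974, and that fit called 4.93% of its genes and 0 of the 10. In each of these fits the lone control library is assumed to vary like the other group.

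Dcp1b was the main DCP1 transcript of the testis in every library. Of the reads on either gene it took 78.8% in control replicate 1 (95% exact binomial interval 77.4 to 80.1), 74.8% in control replicate 2 (73.3 to 76.2), and 80.2% (78.9 to 81.4) and 81.0% (79.7 to 82.2) in the vKO-labelled libraries; these intervals cover counting error only. Per kilobase of merged exons the ratio of Dcp1b to Dcp1a ran from 3.85 to 5.53. Reads that match both Dcp1a and its pseudogene CR555305.1, described below, leave the share and the ratio uncertain to an extent not measured. The log2 ratio was 0.32 higher in the vKO-labelled libraries (2.43 against 2.11), with groups that did not overlap: it was 2.27 in control replicate 1, 1.94 in control replicate 2, and 2.39 and 2.47 under the vKO label. Its size rested on control replicate 2: without that library the difference was 0.16, and without control replicate 1 it was 0.49. An exact permutation test of 2 libraries against 2 cannot give a p below 0.333, which is what it gave, two-sided.

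**Figure D2:**
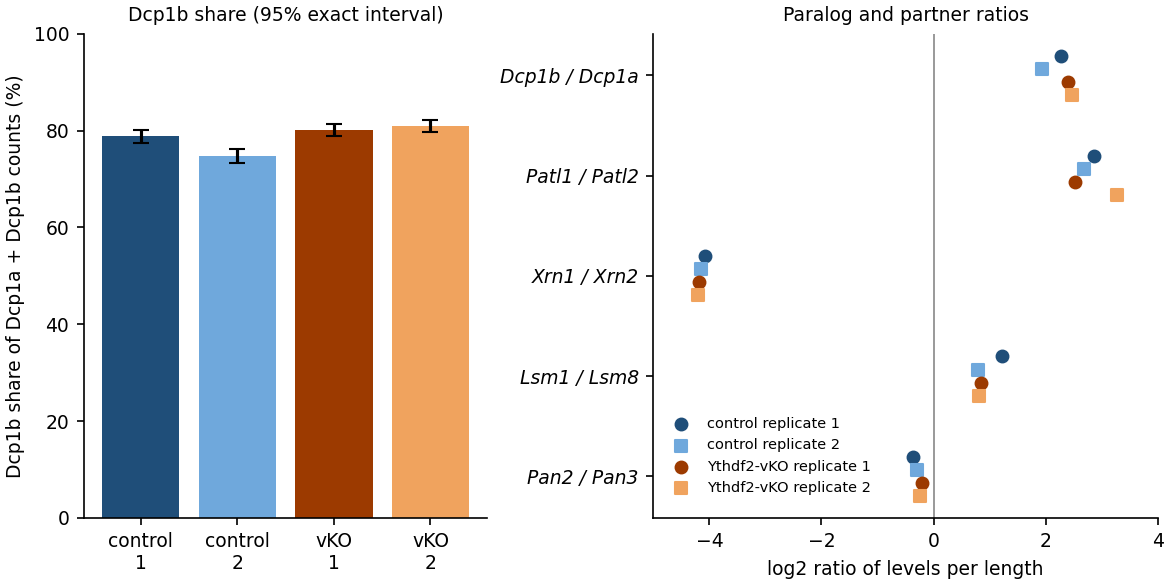
Left, the share of Dcp1b among reads on Dcp1a and Dcp1b in each library, in percent with its 95% exact binomial interval; right, the log2 ratio of levels per kilobase for 5 paralog or partner pairs, 1 point per library. Dcp1b holds 74.8% to 81.0% of the reads in all 4 libraries, and Xrn1 lies far below Xrn2 in each.

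Neither of the 2 enhancers of decapping passed the test. Edc4 (chromosome 8, 105880881 to 105894908, plus strand), the scaffold that joins DCP1 to DCP2, stood at 137 and 105 CPM in the control libraries and 118 and 106 CPM in the vKO-labelled libraries. The controls held both the highest and the lowest value (log2 fold change -0.11, SE 0.14, adjusted p 0.797). Edc4 has the highest GC content of the 10 genes, 55.5%, and the GC offset moved its log2 fold change to -0.25 (adjusted p 0.416). Without control replicate 1 it was 0.09 and without control replicate 2 it was -0.29, so its sign depended on which control library was kept. Exons of Edc4 overlap those of Nrn1l over 458 nt on the same strand, and Nrn1l was not in the table. How the counting treated reads in that overlap is not given in the sources used here, so the level of Edc4 is uncertain to that extent. Edc3 (chromosome 9, 57708540 to 57752499, plus strand), which binds DCP2 and DDX6, stood at 26.4 and 28.8 CPM in the control libraries and 26 and 27.1 CPM in the vKO-labelled libraries. It had the smallest difference of the 10 (log2 fold change -0.06, SE 0.14, adjusted p 0.906), and scaling by library totals alone turned its sign, to 0.006. Its exons overlap those of Clk3, on the opposite strand, over 1284 nt. Clk3 had 3226 to 4118 counts per library against 617 to 862 for Edc3, and since the use of strand in the counting is not given in the sources used here, the value of Edc3 is uncertain.

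Xrn1, the cytoplasmic exonuclease (chromosome 9, 95954760 to 96057803, plus strand), had the most negative estimate. It stood at 21 and 22.5 CPM in the control libraries and 20.1 and 17.9 CPM in the vKO-labelled libraries. Neither of the latter reached the controls, and the difference did not pass the test (log2 fold change -0.19, SE 0.15, adjusted p 0.622). With the GC offset it was -0.12, at a GC content of 41.9%. Exons of Xrn1 overlap 2 antisense genes: C78334 over 604 nt, which was not in the table, and Gm16794 over 184 nt, which had 5 to 26 counts per library. With the use of strand in the counting not given, the value of Xrn1 is uncertain too.

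Ddx6 (chromosome 9, 44604892 to 44640731, plus strand) encodes the DEAD-box helicase that links deadenylation to decapping. Its level was 79.4 and 73.7 CPM in the control libraries and 72.2 and 66.0 CPM in the vKO-labelled libraries. The groups did not overlap, yet control replicate 2 and replicate 1 of the vKO-labelled libraries differed by less than the replicates of either group (log2 fold change -0.15, SE 0.13, adjusted p 0.665). Its GC content is 43.4%, and the GC offset brought the log2 fold change to -0.09. Dcp1a, Dcp2, Xrn1 and Ddx6 were thus the 4 of 10 members whose groups did not overlap, against 45.3% of all genes tested, a share near that background.

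In the 3 factors acting at the 3′ end the groups overlapped. Patl1 (chromosome 19, 11912399 to 11945091, plus strand), which bridges the LSM ring and the decapping complex, stood at 11 and 10.2 CPM in the control libraries and 11 and 11.4 CPM in the vKO-labelled libraries (log2 fold change 0.08, SE 0.17, adjusted p 0.887). Lsm1 (chromosome 8, 25785288 to 25803975, plus strand), the subunit that sets the cytoplasmic LSM ring apart from the nuclear one, stood at 19.7 and 17.3 CPM in the control libraries and 18.8 and 16.5 CPM in the vKO-labelled libraries. Replicate 1 was above replicate 2 in each group by more than the groups differed (log2 fold change -0.07, SE 0.16, adjusted p 0.896). Pan2 (chromosome 10, 128303335 to 128321358, plus strand), the catalytic subunit of the PAN2-PAN3 deadenylase, stood at 58.78 and 49.97 CPM in the control libraries and 59.3 and 55.8 CPM in the vKO-labelled libraries. Control replicate 2 was again the lowest value (log2 fold change 0.08, SE 0.14, adjusted p 0.844), and without that library the log2 fold change was -0.03.

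In 6 of the 10 genes the gap between the control libraries was larger than the difference between group means, as it was in 54.2% of all genes tested. The gap was largest for Dcp1b and Edc4, where control replicate 1 exceeded control replicate 2 by 0.39 and 0.38 on the log2 scale, followed by Pan2 with 0.23. GC content is 50.4% in Dcp1b, 55.5% in Edc4 and 51.2% in Pan2, against a median of 48.9% for all genes tested. Edc3, at 51.6%, went the other way, with -0.12. The part of base composition in these gaps was not tested gene by gene, beyond the values with the GC offset.

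The 10 genes spanned a wide range of levels, compared here per length as CPM per kilobase of merged exons over the 4 libraries. Edc4 was the highest at 21.2 ± 2.69 and Dcp1b followed at 18.1 ± 2.35 (mean ± SD, n = 4). Their ranges overlapped, though Edc4 was above Dcp1b in each library. Ddx6 stood at 9.06 ± 0.689, Pan2 at 6.61 ± 0.506 and Lsm1 at 5.84 ± 0.473, with ranges of Pan2 and Lsm1 that overlapped. Below them came Edc3 at 4.66 ± 0.211, Dcp1a at 3.73 ± 0.218 and Patl1 at 2.54 ± 0.122. Dcp2 at 1.83 ± 0.125 and Xrn1 at 1.10 ± 0.103, the enzymes of cap removal and 5′ digestion, were the lowest. The highest and lowest levels differed 19.3-fold. All other neighbours in this order had ranges that did not overlap, and the order was the same in both groups.

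Against all genes tested, the level per length of Edc4 lay at the percentile 84.7, that of Dcp2 at 39.7 and that of Xrn1 at 29.8. Length matters for this order. Merged exons of Xrn1 come to 18585 nt and its longest transcript to 10256 nt. The transcript with its longest coding sequence has only 5499 nt, and levels were not compared at that length, so the low place of Xrn1 depends on the length chosen. With the longest transcript as the length, 3 neighbouring pairs changed places: Dcp1b (27.2) came above Edc4 (24.3), Dcp1a (5.50) above Edc3 (4.74) and Xrn1 (1.99) above Dcp2 (1.84). Processed pseudogenes similar to Dcp1a (CR555305.1, 92.3% identical over 904 nt), Ddx6 (Gm13410, 94.5% over 1218 nt) and Lsm1 (Gm15209, 94.0% over 403 nt) are annotated, and none was in the table. How the counting treated reads that match a gene and such a copy is not given in the sources used here, so the levels of Dcp1a, Ddx6 and Lsm1 are uncertain to that extent.

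**Figure D3:**
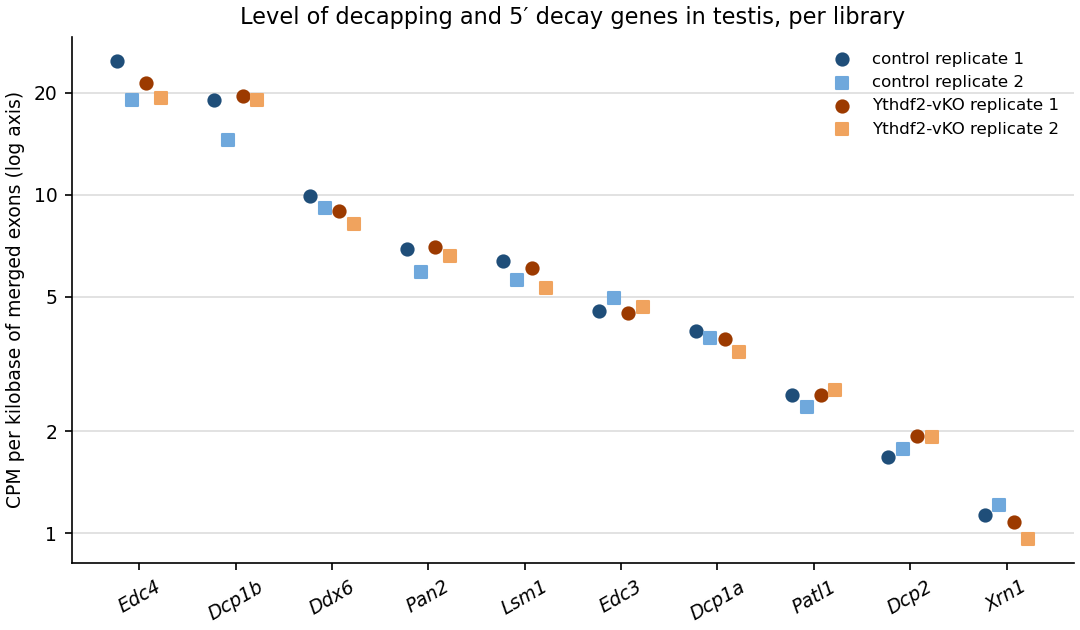
Level of each of the 10 genes in each of the 4 libraries, in CPM per kilobase of merged exons on a log axis, ordered by mean level. The spread between genes, from 1.10 for Xrn1 to 21.2 for Edc4, is far wider than that between libraries of a gene, and the same order holds in both groups.

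Paralogs and partners kept the order of their levels in every library. Xrn2, the nuclear 5′ exonuclease, was far above Xrn1: per length of merged exons Xrn1 reached between 0.0541 and 0.0591 of Xrn2, and 0.0878 on average with longest transcripts as the length. Patl2, a PATL1 paralog, was at 0.878 CPM in the control libraries and 0.875 CPM in the vKO-labelled libraries, and Patl1 exceeded it 5.77 to 9.71 times per length. Lsm1 exceeded Lsm8, the corresponding subunit of the nuclear ring, 1.73 to 2.33 times. Pan2 stood at 0.778 to 0.863 of Pan3, its regulatory partner, and at 0.511 on average with longest transcripts as the length. Log2 ratios of the groups differed by -0.09 for Xrn1 to Xrn2, 0.13 for Patl1 to Patl2, -0.18 for Lsm1 to Lsm8 and 0.10 for Pan2 to Pan3. The exact permutation test gave a p of 0.333, the smallest it can give here, for the first and last of these and 1.0 for the others. Leaving out 1 library turned the sign for Patl1 to Patl2 (-0.25 without replicate 2 of the vKO-labelled libraries) and for Lsm1 to Lsm8 (0.04 without control replicate 1). Adjusted by Benjamini-Hochberg over the 5 ratios, Dcp1b to Dcp1a included, the smallest exact p was 0.555.

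Other genes of the pathway were taken from a list of 25 partners. In the same edgeR test 0 of 25 were called (0.393% of all genes), and 3 had an unadjusted p under 0.05 (12%, against 14.1% of all genes); DESeq2 called 0 of 24 with an adjusted p, and 3 of 25 had an unadjusted p under 0.05 (12%, against 8.76% of all genes). Their median log2 fold change was -0.008 and their median absolute value 0.089. Pnrc1, which encodes a proline-rich protein that binds the decapping complex, had 18.2 and 20.9 CPM in the control libraries and 29.1 and 25.8 CPM in the vKO-labelled libraries. Both of the latter were above the controls (log2 fold change 0.49, SE 0.15, adjusted p 0.185). Dxo, a decapping exonuclease that acts on incomplete caps, had 42.3 and 31.2 CPM against 50.2 and 48.1 CPM (log2 fold change 0.42, SE 0.16, adjusted p 0.247). Its transcript is rich in GC, at 59.9%, and the GC offset lowered the log2 fold change to 0.21.

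Eif4e, the cap-binding protein that decapping must displace, had 307 and 298 CPM in the control libraries and 238 and 242 CPM in the vKO-labelled libraries. Replicates were close in each group, but the difference did not pass (log2 fold change -0.33, SE 0.12, adjusted p 0.225). Calls on these genes appeared when the model or the libraries changed. With the replicate number as a block Pnrc1 (adjusted p 0.0424) and Dxo (0.0367) passed, in a fit that called 4.81% of all genes and 0 of the 10 members. With the GC offset added to the block neither passed: the adjusted p was 0.0877 for Pnrc1 and 0.329 for Dxo, whose log2 fold change was then 0.22, and that fit called 0 of the 25 partners and 2.49% of all genes. Without control replicate 1, in a fit that called 6.82% of its genes, Dxo (log2 fold change 0.65, adjusted p 0.00174) and Tnrc6c (0.52, adjusted p 0.00389, named here after its values were seen) passed. Both rested on control replicate 2, without which the values were 0.22 for Dxo (adjusted p 0.498) and 0.05 for Tnrc6c (adjusted p 0.906). Pnrc1 (adjusted p 0.0288) and Eif4e (0.0467) passed without control replicate 2, in a fit that called 4.93% of its genes, and did not pass without control replicate 1 (0.186 and 0.0696).

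The remaining partners named by rule were closer to 0. Pan3 had 121 ± 17.3 CPM in the control libraries and 119 ± 3 CPM in the vKO-labelled libraries (mean ± SD, n = 2), a log2 fold change of -0.02. Eif4enif1, the eIF4E transporter of processing bodies, had 57.1 ± 4.13 and 62.4 ± 1.87 CPM (log2 fold change 0.13, adjusted p 0.720). The processing body proteins LSM14A and LSM14B had estimates of opposite sign, -0.18 for Lsm14a (adjusted p 0.640) and 0.24 for Lsm14b (adjusted p 0.471). Lsm14b was the higher of the pair per length, at 17.2 CPM per kilobase of merged exons against 4.91 for Lsm14a, and at 19.4 against 10.2 with the longest transcript as the length. Exons of Lsm14a overlap Gm12764 over 344 nt and 2310043P16Rik over 110 nt, both on the opposite strand. With the use of strand not given, its level is uncertain. Similar transcripts such as pseudogenes were not searched for the partners.

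**Figure D4:**
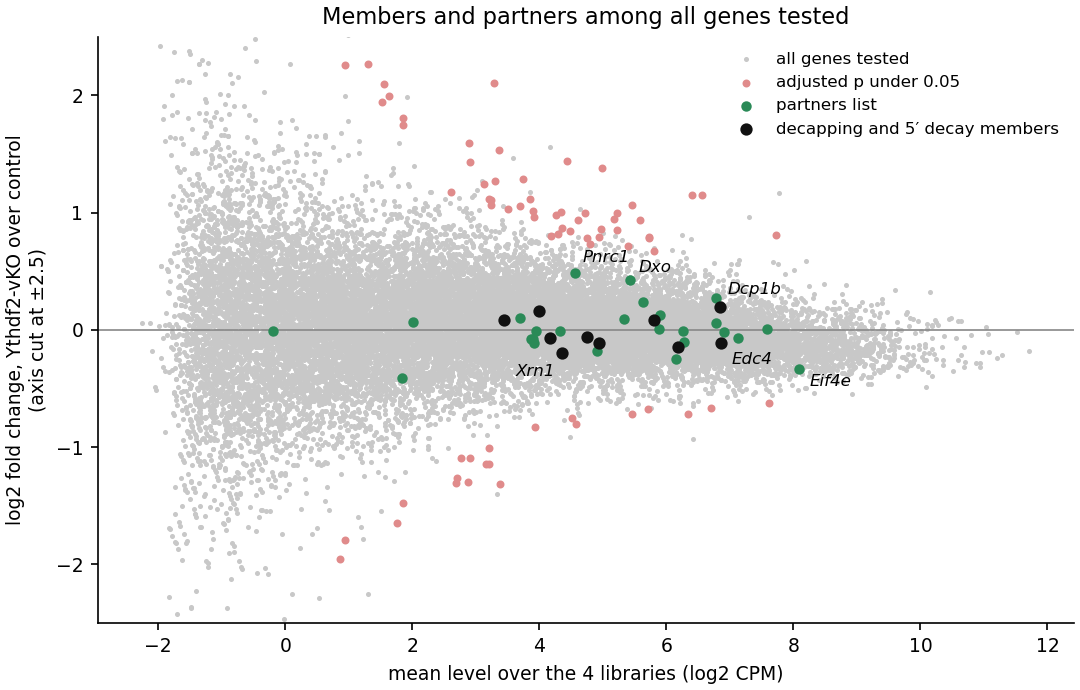
Log2 fold change (y axis, libraries labelled Ythdf2-vKO over control, cut at 2.5 either way) against mean level in log2 CPM (x axis) for all 21132 genes tested, with called genes in red, the 25 partners in green and the 10 decapping and 5′ decay genes in black. The black points lie between -0.19 and 0.20, and no black or green point is called.

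The m6A consensus was looked for in the members because YTHDF2 reads that mark. Its core GGACT, on the sense strand, was found in the longest-coding-sequence transcript of 10 of 10 genes and of 90.2% of 15845 coding genes tested. The median density was 0.881 per kilobase in the members and 1.05 per kilobase in all. Pan2 was the densest, with 8 matches in 4445 nt (1.80 per kilobase), and Dcp1a the sparsest, with 1 match in 5576 nt (0.179 per kilobase). Methylation was not measured here, and these are matches of letters only.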

How the data were processed

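Total RNA of testes was extracted with Trizol, depleted of ribosomal RNA and made into directional libraries, per the labels' protocols. The authors deposited 1 table with raw read counts per gene for 4 libraries, the mean normalized count (a signal), the log2 fold change and its error, the Wald statistic (a score), a p-value and its adjusted form; per the file headers these are DESeq2 columns. HISAT2 2.1.0 and HTSeq 0.6.1p1 are named per the submitters' processing notes; their settings and the genome build are not given in the sources used here. Replicates differed by more than sampling noise (chi-square per degree of freedom 19.374 in control, 7.841 in the other group), so none were merged. No gene had fewer than 10 counts in all.

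Counts were tested with edgeR 4.0.16 (R 4.3.3): filterByExpr, TMM scaling, robust quasi-likelihood fit of genotype alone, two-sided, adjusted over 21132 genes, called under 0.05. SE is the absolute log2 fold change over the square root of F, and intervals use its t quantile. The script was tested on simulated counts. Alternatives were other scalings and filters, no robust estimation, DESeq2 1.42.0, a stricter threshold, a smooth per-library GC offset, the replicate number as a block, and leaving out each library. Coordinates, lengths and GC are from GENCODE M21 (GRCm38) by identifier. Transcripts similar to the 10 genes, but not to the partners, were searched with BLAST 2.17.0. The 10 genes, 25 partners and marker lists were chosen with earlier results of these data known; named are all 10 genes, Ythdf2, partners at an unadjusted p under 0.05, and Pan3, Eif4enif1, Lsm14a and Lsm14b.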

Additional observations from a re-analysis of the deposited data

How the results depend on the processing

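With library totals alone 181 genes were called as higher under the vKO label and 37 as lower, against 59 and 24; a DESeq2 Wald test gave 137 and 80, a fit without robust estimation 15 lower, the GC offset 65 lower, and calling at an adjusted p of 0.01 left 8 and 2. With the replicate block there were 627 and 390, with 2 partners, and with the GC offset and replicate block 245 and 282, with 0 partners. The labels do not say what the replicate numbers mark and libraries of the same number had deviations correlating at 0.0913, with only 2 pairs, so no pairing was assumed. Leaving out 1 library gave 30 to 1048 genes higher, 5 to 523 lower, 0 to 1 members and 0 to 2 partners; the lone library is assumed to vary like the other group. The members stayed at 0 calls under every other alternative. Signs turned for Edc3 (0.006 with library totals alone; -0.12 to 0.007 leaving out 1 library), Edc4 (-0.29 to 0.09), Lsm1 (-0.17 to 0.02), Pan2 (-0.03 to 0.20), and Pan3 (0.05 with library totals alone, 0.001 with the GC offset, 0.011 with the GC offset and replicate block, and -0.16 to 0.12). Among differences in log2 ratio, recomputed this way by a choice made after seeing the data, leaving out 1 library turned Patl1 to Patl2 (-0.25 to 0.50) and Lsm1 to Lsm8 (-0.39 to 0.04). The cause was not tested, other than for the stricter threshold, which passes fewer genes by construction. Library totals alone moved the median of all genes from 0.003 to 0.067. With 2 libraries a group and no molecular identifiers, standard deviations are imprecise and intervals on read shares cover counting error only.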

Other observations

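Subunits of the LSM rings differed in level. Per kilobase of merged exons and over the 4 libraries, Lsm4 stood at 73.6 CPM and Lsm2 at 35, while Lsm7 (9.63), Lsm1 of the cytoplasmic ring (5.84), Lsm3 (5.48), Lsm5 (4.50) and Lsm6 (3.67) were lower, and Lsm8, of the nuclear ring, was at 3.10. With the longest transcript as the length Lsm2 (69.6) came near Lsm4 (82.6), and Lsm3 (7.43) lay above Lsm1 (6.78). Exons of Lsm3 overlap AC161456.1 over 174 nt on the same strand, a gene with 1 to 5 counts per library. Between genotypes none of these 8 passed the test by edgeR, with log2 fold changes from -0.42 for Lsm5 (adjusted p 0.541) to 0.10 for Lsm8 (adjusted p 0.848).

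Of the cap-binding pair, Eif4e2, which acts with GIGYF2 in translational repression, had 191 CPM in the control libraries and 192 CPM in the vKO-labelled libraries (log2 fold change 0.01, adjusted p 0.993 by edgeR). Gigyf2 had 143 and 137 CPM (adjusted p 0.874 by edgeR), and its exons overlap those of Kcnj13 over 623 nt on the opposite strand. The GW182 family genes, whose proteins recruit deadenylases to microRNA targets, had log2 fold changes of 0.09 for Tnrc6a, -0.25 for Tnrc6b and 0.27 for Tnrc6c, with adjusted p values by edgeR of 0.823, 0.487 and 0.482.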
